A study of Homo sapiens with 9 samples.

Results

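The regions described here are places on hg19 where peaks of p300 were called in exactly 3 or exactly 4 of 5 libraries, with at least 1 treated and 1 untreated library among them. There were 518 of them among 16701 merged regions, which is 3.1% of all regions. They were chosen by which lists held a peak, so their number and their sharing between lists are a description and carry no test. Of the 518, 326 were held by 3 lists and 192 by 4 lists.

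The treated group was PC3 cells given 30 µM MnTE-2-PyP for 24 h, and the untreated group was PC3 cells without the drug. Every culture, with or without the drug, received 20 Gy of radiation and was fixed with 1% formaldehyde 1 h later, so no group shows unirradiated cells. The treated group has 3 p300 libraries and the untreated group 2, named as biological replicates in the series' design. PC3 is an established line from a bone metastasis of a human prostate carcinoma, and a single line stands for all samples.

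p300 (EP300) is a large coactivator that acetylates histones and other proteins and is brought to chromatin by transcription factors. It is found at active promoters and above all at enhancers, where its presence is widely used to map regulatory elements. MnTE-2-PyP is a manganese porphyrin that scavenges superoxide and acts on redox-sensitive transcription factors, some of which use p300 as a partner.

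The authors deposited 1 peak list per library, with a score for each peak whose scale is not named. The lists were very uneven, at 4922, 10059 and 528 peaks in treated lists 1, 2 and 3, against 2313 and 2039 peaks in untreated lists 1 and 2. The peak names of treated list 1 and untreated list 1 share a string, and those of treated list 3 and untreated list 2 share another. The labels do not say what these strings mean. The lists give no read counts, so the depth behind a peak is not known. A region without a peak in a list has no value there, so absence of a peak cannot be read as absence of p300. PC3 is known to lack a Y chromosome, yet 57 of the merged regions, and 10 of the 518, lay on Y.

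The first question was which libraries shared these regions. Treated lists 1 and 2 held 454 and 481 of the 518 regions and treated list 3 held 136, against 414 in untreated list 1 and 261 in untreated list 2. The long treated lists were thus nearly always among the holders, and treated list 3 was lacking from 382 regions. As a share of each list, the peaks in these regions made up 9.91% of list 1 (95% Wilson interval 9.11 to 10.8%), 4.86% of list 2 (4.46 to 5.30%) and 26.5% of list 3 (22.9 to 30.4%) in the treated group. In the untreated group they made up 18.9% of list 1 (17.4 to 20.6%) and 13.0% of list 2 (11.7 to 14.6%). These intervals cover counting error only.

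Among the 192 regions held by 4 lists, the list without a peak was treated list 3 in 120, untreated list 2 in 51 and untreated list 1 in 19. Only 1 such region lacked treated list 1 and only 1 lacked treated list 2. Among the 326 regions held by 3 lists, 153 were held by treated lists 1 and 2 with untreated list 1, and 74 by treated lists 1 and 2 with untreated list 2. The remaining 7 combinations held 42, 20, 15, 11, 6, 5 and 0 regions, the last being treated list 3 with both untreated lists.

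**Figure D1:**
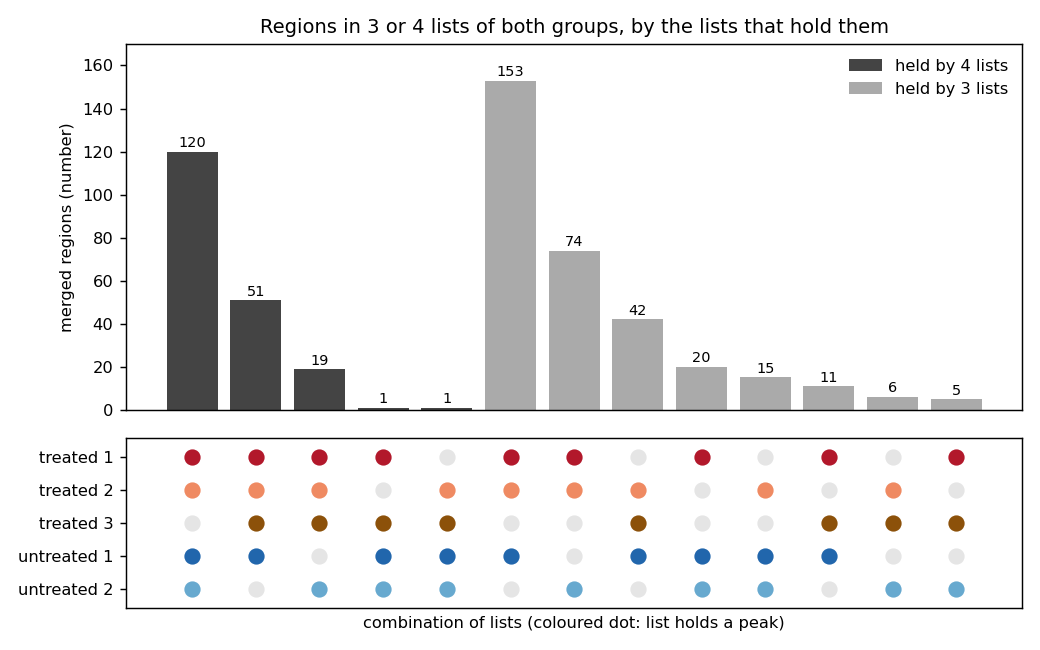
Number of merged regions (y axis) for each combination of lists that hold them (columns of dots, coloured where the list holds a peak), with 4-list combinations in dark grey and 3-list combinations in light grey. The combinations without treated list 3 are the most frequent of each kind, at 120 and 153 regions.

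List length bears on these counts. With the 528 highest-scoring peaks of each list, 213 of 1534 merged regions (13.9%) were held by 3 or 4 lists of both groups, 129 by 3 and 84 by 4. At that equal length treated lists 1, 2 and 3 held 162, 183 and 93 of the 213, against 177 and 108 for untreated lists 1 and 2. Treated list 3 remained the list that held fewest.

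Over the full lists, peaks in these regions ranked high in 4 of the 5 lists, treated list 3 being the exception. Presence of a peak set the choice of regions, and its score did not. Both come from the same peak call, so the ranks are not independent of the choice. The score percentile is the rank of a peak's score in its own list, with the highest score at 100. The median percentile was 87.6, 93.9 and 59.3 in treated lists 1, 2 and 3, against 76.7 and 77.6 in untreated lists 1 and 2. The value of treated list 3 rests on the 42 regions it shares with treated list 2 and untreated list 1 alone, and without them its median was 47.1. With 528 peaks per list the medians were 69.7, 70.1 and 76.3 in treated lists 1, 2 and 3. They were 64.5 and 77.8 in untreated lists 1 and 2, so treated list 3 was then no exception. Peaks at or above the 90th percentile were 211 of 488, 288 of 489 and 30 of 140 in treated lists 1, 2 and 3, against 109 of 438 and 88 of 266 in untreated lists 1 and 2. Over all peaks of all lists the share at or above the 90th percentile was 9.83%. The regions were not uniformly strong, since 93, 76 and 61 of these peaks in treated lists 1, 2 and 3 and 113 and 74 in untreated lists 1 and 2 lay below the 50th percentile of their list.

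The mean percentile over the holding lists had a median of 75.5 for regions in 3 lists and 83.5 for regions in 4 lists. Just outside the limits of the choice, it was 48.7 for the 556 regions in 1 treated and 1 untreated list and 83.7 for the 148 regions in all 5 lists. In 82 of the 518 regions (15.8%) every holding list had its peak at or above the 90th percentile. The same held for 683 of all 16701 merged regions (4.09%), of which 89.6% were held by 1 list. It held for 7 of the 148 regions in all 5 lists, where treated list 3, with a median percentile of 65.3, must pass too. In 22 of the 518 (4.25%) every holding list had its peak below the 50th, against 52.0% of all merged regions.

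**Figure D2:**
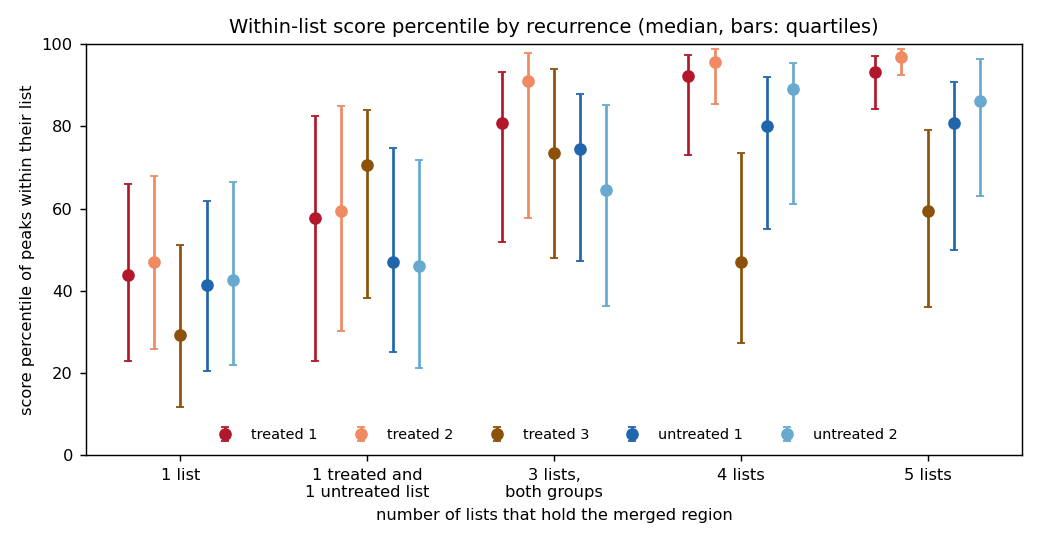
Score percentile of peaks within their own list (y axis; dots are medians, bars run from the lower to the upper quartile) by the number of lists that hold the merged region (x axis), for each of the 5 lists. For regions in 4 lists the medians are 92.3, 95.6 and 47.1 in treated lists 1, 2 and 3 and 80.1 and 89.0 in untreated lists 1 and 2.

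These regions also took up more of the top of each list than of the whole list. Of the 100 highest-scoring peaks, 61, 64 and 37 lay in them in treated lists 1, 2 and 3, against 55 and 49 in untreated lists 1 and 2. Their shares of all peaks were 9.91, 4.86 and 26.5% in the treated lists and 18.9 and 13.0% in the untreated lists. The top 100 is a far larger part of the 528 peaks of treated list 3 than of the 10059 of treated list 2. Regions in all 5 lists took up 35, 34 and 38 of the top 100 in the treated lists and 17 and 47 in the untreated lists. Of its top 100, untreated list 1 thus had more peaks outside the regions common to all lists than any other list had. At an equal share of each list it was close to treated list 2. Among regions at or above the 95th percentile of a list, those in all 5 lists were 23 of 116 in untreated list 1. For treated lists 1, 2 and 3 they were 76 of 241, 104 of 499 and 7 of 26. For untreated list 2 they were 48 of 102.

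The question of treatment was then put to the lists as replicates. The median percentile of peaks in these regions averaged 80.3 ± 18.4 over the treated lists (SD, n = 3) and 77.2 ± 0.647 over the untreated lists (SD, n = 2). The difference of 3.12 points was smaller than the spread among treated lists, with p = 1.0 by exact two-sided permutation, where this design cannot give less than 0.1. The sign was not stable. It turned without the 42 regions of treated lists 2 and 3 and untreated list 1 (-0.66) and over the pairs of lists that share a string in their peak names (-3.70), both settings chosen after seeing the data. Leaving out treated list 1 gave -6.00 points, leaving out treated list 2 gave -11.2 and leaving out untreated list 1 gave -9.18, and the difference was 18.6 without treated list 3 and 9.14 without untreated list 2. Percentiles come from lists of different lengths, so they do not measure a change in binding, and with 528 peaks per list the difference was 0.868 points.

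Region by region, the treated lists had the higher mean percentile in 371 of the 518 regions (71.6%), against 62.8% of all 1222 regions held by both groups. With 528 peaks per list it was 118 of 213 regions, against 54.5% of the 404 regions then held by both groups. At equal length the share was thus near its background. Over the full lists the count also differed with the holding lists. It was 108 of the 120 regions in 4 lists without treated list 3, and 122 of the 153 in treated lists 1 and 2 with untreated list 1. For the 42 in treated lists 2 and 3 with untreated list 1 it was 15, and for the 148 in all 5 lists 74.

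Peak width was compared in the same way, as the median width of peaks in these regions divided by the median width of all peaks of the list. In the treated group the ratio was 1.12 for list 1 (262 bp against 234 bp), 1.31 for list 2 (423 bp against 323 bp) and 0.996 for list 3 (242 bp against 243 bp). In the untreated group it was 1.07 for list 1 (252.5 bp against 235 bp) and 1.08 for list 2 (405.5 bp against 376 bp). The treated mean was 1.14 ± 0.158 (SD, n = 3) and the untreated mean 1.08 ± 0.00282 (SD, n = 2), a difference of 0.065 (exact two-sided permutation p = 0.7). Leaving out treated list 2 gave 0.0046, leaving out treated list 3 gave 0.16, and leaving out untreated lists 1 and 2 in turn gave 0.10 and 0.037, and the difference was -0.0078 with 528 peaks per list.

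The strongest regions in 4 lists lacked a peak in treated list 3. The leading one (chromosome 3, 75717946 to 75719201) scored 62.6 and 81.0 in treated lists 1 and 2, against 55.3 and 38.0 in untreated lists 1 and 2. Its lowest percentile was 98.4, in untreated list 1. The next (chromosome 2, 133026571 to 133027029) scored 50.7 and 83.5 in treated lists 1 and 2, against 73.9 and 25.1 in untreated lists 1 and 2. Its percentiles were 99.97 in treated list 2 and 99.02 in untreated list 2. Further along the same stretch, the region at 133029470 to 133030090 scored 42.7 and 60.5 in treated lists 1 and 2, against 62.3 and 28.6 in untreated lists 1 and 2. All 3 stood above the 98th percentile of every holding list, while treated list 3 had no peak there. As a set, the 120 regions without treated list 3 had median percentiles of 96.5 and 97.8 in treated lists 1 and 2, against 86.7 and 91.3 in untreated lists 1 and 2.

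Regions in 4 lists that lacked untreated list 2 or untreated list 1 ranked lower. The highest without untreated list 2 (chromosome 3, 90223773 to 90224186) scored 48.7, 31.2 and 21.1 in treated lists 1, 2 and 3, against 25.3 in untreated list 1. The second (chromosome 8, 46941216 to 46941545) scored 20.9, 17.6 and 26.0 in the treated lists, against 30.2 in untreated list 1. The third (chromosome 12, 128792772 to 128793240) scored 45.9, 25.6 and 16.0 in the treated lists, against 31.5 in untreated list 1. In all 3 the peak of untreated list 1 stood above the 91st percentile. The 51 regions without untreated list 2 had median percentiles of 88.6, 91.9 and 48.7 in treated lists 1, 2 and 3, against 70.9 in untreated list 1.

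The highest of the 19 regions without untreated list 1 (chromosome 13, 112687886 to 112688289) scored 34.7, 19.8 and 11.2 in treated lists 1, 2 and 3, against 8.06 in untreated list 2. The other 2 named lay on chromosome 16 at 33965357 to 33965978 and on chromosome 12 at 127650287 to 127650804, with mean percentiles of 84.5 and 78.9. The 19 had median percentiles of 71.2, 78.8 and 39.2 in the treated lists, against 51.5 in untreated list 2. The single region without treated list 1 (chromosome 9, 97700182 to 97700520) scored 8.82 and 8.04 in treated lists 2 and 3, against 7.71 and 9.20 in untreated lists 1 and 2. The single region without treated list 2 lay on chromosome 19 at 36066333 to 36066828. Its scores were 5.15 and 27.1 in treated lists 1 and 3, against 6.64 and 11.6 in untreated lists 1 and 2, with percentiles of 17.8 and 96.4 in treated lists 1 and 3, against 35.8 and 94.4 in untreated lists 1 and 2.

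In some of these regions the list without a peak had one close by. For 30 of the 51 regions without untreated list 2, that list had a peak within 10 kb, and for 13 within 1 kb. For the 19 regions without untreated list 1 the numbers were 10 and 7. For the 120 regions without treated list 3 they were 30 and 13, with a median distance of 751 kb to its nearest peak, in a list of only 528 peaks. Many of these lay near stretches with 2 or more regions common to all 5 lists. Away from such stretches a peak within 10 kb was found for 9 of 30 regions without untreated list 2, 4 of 13 without untreated list 1 and 10 of 99 without treated list 3. The share over all merged regions without the list in question was not computed. These counts therefore do not show whether such nearby peaks are more frequent here than elsewhere.

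The 42 regions held by treated list 2, treated list 3 and untreated list 1, and by neither treated list 1 nor untreated list 2, stood out among the 3-list combinations by their ranks. Their median percentile was 98.1 in treated list 2 and 91.3 in treated list 3, against 98.6 in untreated list 1. The lowest and highest percentiles were 22.9 and 99.9 in treated list 2 and 4.17 and 99.8 in treated list 3, against 18.0 and 100 in untreated list 1. In 22 of the 42 every holding list had its peak at or above the 90th percentile, and these made up 22 of the 46 such regions among all 326 in 3 lists.

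The leading region of this combination (chromosome 7, 82093456 to 82093920) scored 54.0 and 59.9 in treated lists 2 and 3, against 85.4 in untreated list 1. The next (chromosome 4, 116458265 to 116458665) scored 58.9 and 50.4 in treated lists 2 and 3, against 105.1 in untreated list 1, the highest score in that list. Both stood above the 99th percentile of all 3 lists that held them. The following ones were named after their values were seen. The third (chromosome 4, 23703050 to 23703549) scored 67.4 and 44.2 in treated lists 2 and 3, against 73.7 in untreated list 1. The fourth (chromosome 9, 96898999 to 96899487) scored 50.8 and 44.7 in treated lists 2 and 3, against 69.6 in untreated list 1.

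Regions of this combination made up 0 and 5 of the 10 highest-scoring peaks of treated lists 2 and 3, against 9 of the 10 highest of untreated list 1. In the top 100 they made up 12 and 24 peaks in treated lists 2 and 3, against 27 in untreated list 1. They lay on 19 chromosomes, and 37 of the 42 had no other of the 518 regions within 50 kb. Treated list 1 had a peak within 10 kb of 5 of the 42, and untreated list 2 of 3, with median distances of 646 and 827 kb to the nearest peak. The matching share over all merged regions was not computed for these counts either. With 528 peaks per list the combination held 37 regions, and 31 of the 42 overlapped one of these. The opposite combination, treated list 1 with untreated list 2 alone, held 74 regions with median percentiles of 49.0 in treated list 1 and 57.3 in untreated list 2. Peaks of all 556 regions in 1 treated and 1 untreated list had medians of 57.7 in treated list 1 and 46.1 in untreated list 2. The ranks of the 74 are thus those of regions in 2 lists and are no measure for the 42.

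**Figure D3:**
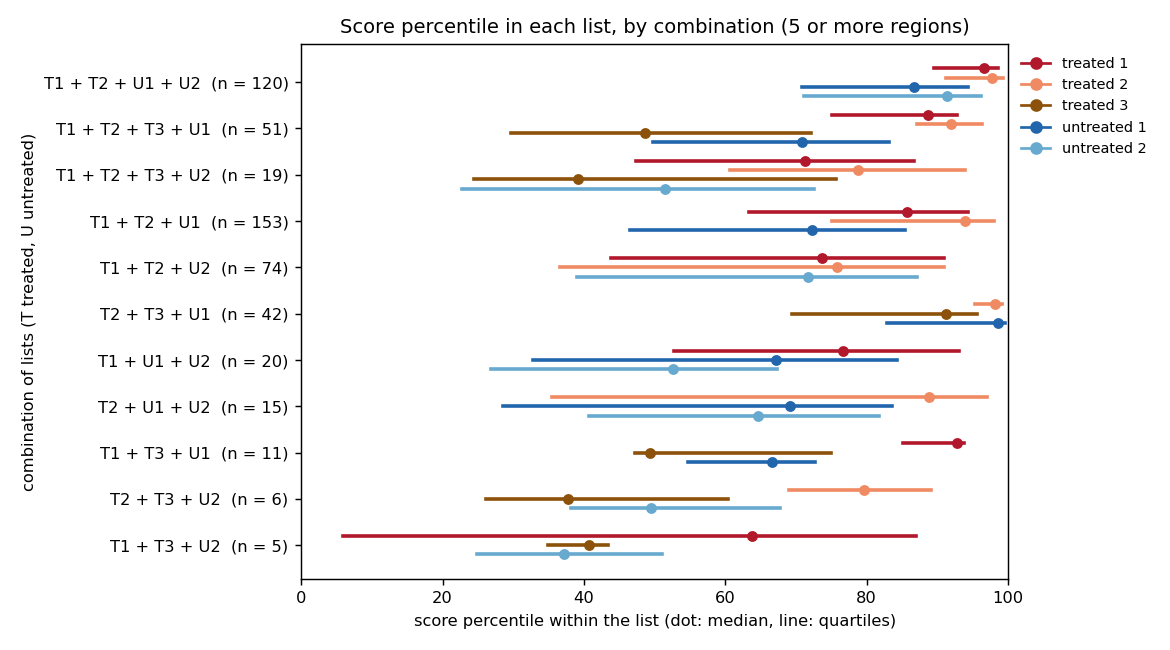
Score percentile within each list (x axis; dots are medians, lines run from the lower to the upper quartile) for each combination of lists with 5 or more regions (rows; T treated, U untreated). The 42 regions in treated lists 2 and 3 and untreated list 1 have medians of 98.1, 91.3 and 98.6, while treated list 3 has medians between 37.8 and 49.3 in the other combinations drawn.

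The other 3-list combinations had lower median mean percentiles, between 47.7 and 82.2, against 95.0 for the 42. The 153 regions in treated lists 1 and 2 with untreated list 1 had median percentiles of 85.6 and 93.9 in the treated lists, against 72.2 in untreated list 1. The 2 leading ones were on Y. The first, at 13487630 to 13488062, scored 53.8 and 33.1 in treated lists 1 and 2, against 38.7 in untreated list 1. The second, at 10025096 to 10025493, scored 52.8 and 18.8 in treated lists 1 and 2, against 38.9 in untreated list 1. The 74 regions in treated lists 1 and 2 with untreated list 2 ranked lower, with medians of 73.6 and 75.8 in the treated lists, against 71.7 in untreated list 2. They were led by chromosome 1 at 228102040 to 228102548, which scored 43.1 and 20.6 in treated lists 1 and 2, against 14.5 in untreated list 2. Chromosome 3 at 75107565 to 75107979 followed, with 33.3 and 25.5 in treated lists 1 and 2, against 15.1 in untreated list 2.

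Regions in both untreated lists and 1 treated list were few. The 20 with treated list 1 were led by chromosome 4 at 49318785 to 49319227, which scored 27.0 in treated list 1, against 19.0 and 8.91 in untreated lists 1 and 2. Chromosome 1 at 156204759 to 156205097 followed, with 20.5 in treated list 1, against 12.7 and 14.6 in untreated lists 1 and 2. The 15 with treated list 2 were led by chromosome 5 at 178034551 to 178034899, which scored 14.4 in treated list 2, against 14.9 and 13.0 in untreated lists 1 and 2. Next came chromosome 11 at 75598133 to 75598479, at 8.21 in treated list 2, against 17.9 and 9.42 in untreated lists 1 and 2. No region was held by both untreated lists and treated list 3 alone. Treated list 3 with treated list 1 and 1 untreated list gave 11 regions with untreated list 1, led by chromosome 1 at 120543844 to 120544168, and 5 with untreated list 2, led by chromosome 9 at 93137989 to 93138347. Treated lists 2 and 3 with untreated list 2 gave 6, led by chromosome 2 at 128920941 to 128921283. The second of each were chromosome 19 at 23254138, chromosome 14 at 68830250 and chromosome 10 at 64684057. Mean percentiles of these 6 named regions lay between 48.1 and 79.1.

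Between lists, scores of shared regions ranked in similar order. Spearman's rho of the percentiles was 0.73 for treated list 1 with untreated list 1 over 356 shared regions and 0.65 for treated lists 1 and 2 over 417. It was 0.58 for the untreated lists over 157, and lowest for treated list 3 with untreated list 2, at 0.13 over 32 regions. These values describe regions that share libraries and were chosen for being shared, and were not tested.

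Merged regions had a median width of 477.5 bp, from 233 bp (chromosome 19 at 23254138 to 23254370) to 2806 bp (chromosome 1 at 2605441 to 2608246, a merge of 9 peaks). Regions in 4 lists had a median of 515.5 bp and regions in 3 lists 455 bp, against 741 bp for regions in all 5 lists and 439.5 bp for regions in 1 treated and 1 untreated list. A merge of more peaks is wider by construction. Lists also differed in their narrowest peak, at 193, 291 and 200 bp in treated lists 1, 2 and 3, against 199 and 332 bp in untreated lists 1 and 2. The width of a region thus depends on which lists hold it. All holding lists covered a common stretch in 481 of the 518 regions, with a median of 210 bp, and in 37 the lists were joined by chains of peaks with no base in common. Where there was a common stretch, the centres of the best peaks lay within a median of 71 bp of one another. The centres of treated list 1 and untreated list 1 were closest, at a median of 18.5 bp, and those of treated list 3 and untreated list 2 farthest apart, at 82.5 bp. For the 42 regions of treated lists 2 and 3 and untreated list 1 the spread of centres was 40 bp. These regions lack untreated list 2. Pairs with that list had median centre distances of 60.5 to 82.5 bp, and pairs without it 18.5 to 47.5 bp.

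Along the genome, 304 of the 518 regions had no other of them within 50 kb, and 214 lay in 52 stretches of 2 or more. The same split was not made for all merged regions. These counts therefore do not show whether the 518 lie closer together than other regions. Regions standing alone were narrower, at a median of 442.5 bp against 671.5 bp in stretches, and higher in rank, with a median mean percentile of 86.2 against 63.6. A mean percentile of 80 or more was reached by 193 of the 304 and by 55 of the 214. Widths above 1 kb occurred in 5 of the 304 and in 44 of the 214.

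**Figure D4:**
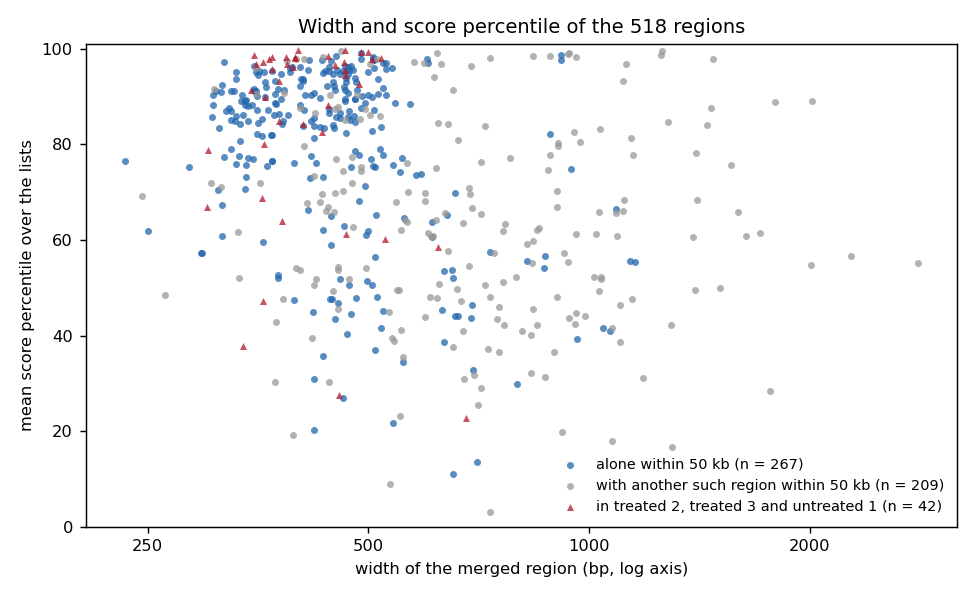
Mean score percentile over the holding lists (y axis) against the width of the merged region (x axis, log scale) for all 518 regions, each a point. Of the 267 regions standing alone outside the combination drawn as triangles, 163 reach a mean percentile of 80 or more, against 54 of 209 in stretches, and 44 of the 49 regions wider than 1 kb lie in stretches.

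The 8 stretches with 9 or more of these regions held 88 of the 518. The longest series was on chromosome 1 from 2583432 to 2631071, with 16 regions of median width 1130.5 bp and 40, 30 and 16 peaks in treated lists 1, 2 and 3, against 26 and 11 in untreated lists 1 and 2. Chromosome 15 from 20451855 to 20558028 followed with 13, and chromosome 4 from 49281935 to 49332940 with 11. The chromosome 4 stretch held no region common to all 5 lists, and treated list 3 had 1 peak in it, against 22 and 13 in treated lists 1 and 2 and 18 and 11 in untreated lists 1 and 2. Stretches of 10 lay on chromosome 1 from 161414420 to 161441833, on chromosome 19 from 8851629 to 8895888 and on chromosome 4 from 190986619 to 191013902, near the end of the long arm, where tandem repeats are known.

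Stretches of 9 lay on chromosome 2 from 133015072 to 133034900 and on chromosome 8 from 86736264 to 86806447. All 9 on chromosome 2 were in 4 lists, 8 of them in treated lists 1 and 2 and both untreated lists, and their median mean percentile was 98.5. That stretch thus combined close spacing with high rank, while the chromosome 1 stretch at 2583432 had a median of 54.9. Within 50 kb of a stretch holding 2 or more regions common to all 5 lists lay 85 of the 518 regions (16.4%), against 1.58% of all merged regions. It was 37 of the 326 in 3 lists and 48 of the 192 in 4 lists. All these regions recur in several lists by choice, so this share is no independent result.

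All 24 chromosomes held such regions, most of all chromosomes 1 (60) and 10 (51), which held 11.6% and 9.85% of them against 11.9% and 9.83% of all merged regions. Chromosome 4 held 36 (6.95% against 2.27%), of which 21 lay in its 2 stretches of 10 or 11. Chromosome 9 held 24 (4.63% against 1.67%) with none in a stretch of 9 or more. Chromosome 20 held 8 (1.54% against 4.90%) and chromosome 17 held 18 (3.47% against 6.99%). On Y, 10 of 57 merged regions (17.5%) were among the 518, with a median mean percentile of 96.6.

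Regions in 3 and in 4 lists were spread unevenly. Chromosome 14 held 31 regions in 3 lists and 1 in 4, with a median mean percentile of 48.8, the lowest of any chromosome. Chromosome 10 held 39 in 3 lists and 12 in 4. Chromosome 4 held 16 and 20, and chromosome 1 held 29 and 31. The outer 5 Mb of the span covered by peaks on each chromosome held 21.0% of the 518 regions and 23.4% of all merged regions.

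**Figure D5:**
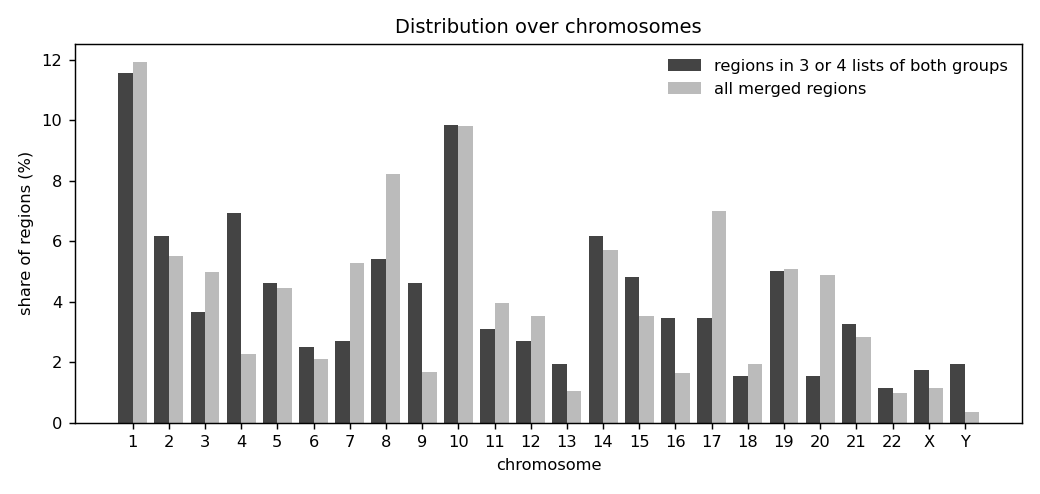
Share of regions on each chromosome (y axis, %) for the 518 regions in 3 or 4 lists of both groups (dark) and for all 16701 merged regions (light). Chromosomes 4 and 9 hold 6.95% and 4.63% of the 518 against 2.27% and 1.67% of all regions, and chromosomes 17 and 20 hold less than their share.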

How the data were processed

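Per the submitters' processing notes, the build was hg19 and MACS2 was used. Its version, its threshold, the aligner and the control library are not given in the sources consulted. The authors deposited 5 peak lists, 1 per p300 library, each with a score per peak. Scores served to rank peaks within a list, and those printed for named regions are not comparable between lists. The 4 input libraries and genes and sequence of hg19 were not used here.

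Peaks of all lists overlapping by 1 bp or more were merged. Ties in score share a mean percentile, and a region takes the best peak of each list. Coordinates count from 1. Stretches join regions at most 50 kb apart. Exact permutation tests ran over the 10 splits of 5 lists. Named regions were, by mean percentile, the first 3 for each missing list and the first 2 for each 3-list combination, with the widest, the narrowest and the densest 1 Mb window (chromosome 1, 2 to 3 Mb, 17 regions). Regions and rules were chosen with earlier results of these data known. Lists numbered alike share no stated culture or day, so numbers do not pair them. The counting was tested on simulated, well separated sites with 1 peak per holding list. Chains of peaks, several peaks of the same list in a region and dense stretches were not covered by that test. Python 3.11.15, numpy 2.4.6, pandas 2.3.3, scipy 1.17.1 and matplotlib 3.10.9 were used.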

Additional observations from a re-analysis of the deposited data

Results flagged for a closer look

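The pairs of lists that share a string in their peak names moved in opposite directions over the full lists. This difference was not tested, with 1 list per group in each pair. The median score percentile of peaks in the 518 regions differed by 10.9 points for treated list 1 minus untreated list 1 and by -18.3 points for treated list 3 minus untreated list 2. The relative width differed by 0.045 in the first pair and by -0.083 in the second.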

How the results depend on the processing

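Of 45 alternative values, 32 kept their direction or, for the number of regions, stayed within 1.5-fold, 6 counts moved further and 7 differences changed sign. The number of regions, 518, became 213 with equal numbers of top-scoring peaks and 209 to 334 when a list was left out and exactly 3 of the 4 remaining lists had to hold a region. Fewer peaks or lists then define the set. Leaving out each list in turn gave percentile differences of -11.2 to 18.6 points and relative width differences of 0.0046 to 0.16. The relative width difference turned to -0.0078 with equal numbers of peaks and to -0.019 over the pairs of lists that share a string in their peak names. The percentile difference turned to -3.70 over those pairs and to -0.66 without the 42 regions of treated lists 2 and 3 and untreated list 1. The cause was not tested. Both of these settings were chosen after seeing the data. With the replicate number as a block, the percentile and relative width differences were 13.6 points and 0.14, with no change of sign. That setting leaves out treated list 3, which has no untreated list of its number. Leaving out treated list 3 alone gave 18.6 points and 0.16. As the numbers do not pair the lists, the block is no sign of a stable difference. Depth is unknown, so regions near a list's threshold cannot be separated from regions without signal.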
